A study of Ovis aries with 27 samples.

Results

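The late-gestation change in the control fetal heart was read from 14 septum samples of a series of 27: 6 control fetuses at 130 days of gestation and 8 control fetuses at 140 days. They were found by their labels alone, as the scanner files titled for control septum at each of the 2 ages, and no measured value entered that choice. The tissue was the heart septum of fetal sheep (Ovis aries), and the ewes of all 14 fetuses had been infused with vehicle in place of cortisol. The control fetuses of the younger cohort were 129 to 131 days old after about 10 days of vehicle, and those of the older cohort were 139 to 144 days old after about 25 days of vehicle. The labels place the start of infusion near day 120 in one cohort and near day 115 in the other, although one protocol text gives day 115 for all animals. Age, cohort and length of infusion therefore cannot be told apart. The 8 older control fetuses came from 7 ewes, with 1 set of twins that the labels do not identify, so 2 of the 8 values share a mother. The other 13 samples came from ewes given cortisol at 1 mg/kg per day on the same schedules, with 6 fetuses at 130 days and 7 at 140 days.

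Before birth the mammalian heart changes both its fuel and its mode of growth. The fetal heart works at low oxygen tension and burns mainly glucose and lactate, and its muscle cells still divide. Toward term the myocytes leave the cell cycle and enlarge, mitochondria multiply, and the enzymes of fatty acid oxidation and the insulin-sensitive glucose transporter accumulate. In the sheep this transition takes place largely before delivery, while the cortisol and thyroid hormone of the fetus itself rise.

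RNA was labelled with a single dye and hybridised to a sheep oligonucleotide array, 1 array per fetus. A normalized level is the log2 of the processed intensity minus the 75th percentile of its array on the same scale, so that 0 is the level of the 75th percentile, and all changes are 140 minus 130 days on that log2 scale. Arrays give no read depth, and the precision rests on 6 and 8 arrays. The 75th percentile lay at an intensity of 976.7 to 1273 at 130 days and 757.3 to 954.4 at 140 days, so every older array was dimmer than every younger one, and the part of that dimness in the counts below was not tested. Between 80.4% and 85.9% of probes were well above background at 130 days and between 77.0% and 81.6% at 140 days, and no spot of these arrays was saturated. Of the 17 genes fixed as cardiomyocyte markers, only myoglobin (MB), the oxygen store of heart and red muscle, was measured under a listed symbol. Its probe in use stood at 7.83 or higher on all 14 arrays. Lists were matched by symbol, so a member carried under another name would be missed. None of the 4 atrial and none of the 5 conduction-system markers was measured under a gene name, so the part of the septum sampled could not be checked with them.

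Pairs of arrays of the same age correlated over all tested probes at a median r of 0.98 at both ages (0.974 to 0.988 at 130 days, 0.968 to 0.989 at 140 days), and pairs across ages at a median of 0.975. No 2 of the arrays held the same values. Principal component 1 took up 30.4% of the variance and placed the 130-day fetuses at -44.2 to -3.0 and the 140-day fetuses at 6.76 to 56.4, with no overlap. Fetus 2 of the 130-day group lay at the older end of its group, and fetus 1 of the 140-day group lay far from all others on both components. Fetus 3 of the 130-day group was high in interferon-response and myeloid genes. Calls of named genes that ended with these 3 arrays left out together are given below.

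**Figure D1:**
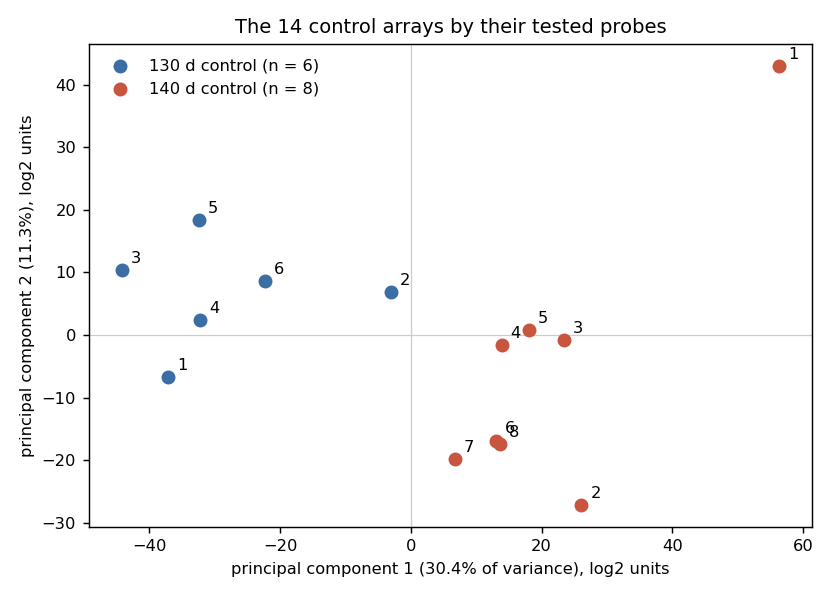
The 14 control arrays by the first and second principal components of the tested probes (log2 units, with the share of variance on each axis); each point is a fetus, numbered by its replicate number, blue for 130 days and red for 140 days. The ages separate along the first component, with 130-day fetus 2 nearest the older group and 140-day fetus 1 alone at the upper right.

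Of 12778 probes tested with limma, 2443 (19.1%) passed a Benjamini-Hochberg adjusted p of 0.05, 1248 (9.77%) higher and 1195 (9.35%) lower at 140 days. Probes with a gene name represented 863 genes, of which 184 (21.3%) passed, 101 (11.7%) higher and 83 (9.62%) lower. These shares are the background for every gene list count below. For 731 probes (5.72%) the values of the 2 ages did not overlap at all, 450 (3.52%) higher and 281 (2.2%) lower at 140 days. The same held for 59 of these genes (6.84%), 37 (4.29%) with every 140-day fetus above and 22 (2.55%) with every 140-day fetus below every 130-day fetus. The rises were many and small, and the falls reached further. Among the called genes 47 changed more than 2-fold, 10 of them up and 37 down, and the 8 that changed more than 4-fold were all lower at 140 days. The balance of rises and falls depended on brightness and on scaling. With the probes split by mean level into 4 equal sets, 603 were higher and 203 lower in the brightest set, whereas 152 were higher and 283 lower in the dimmest. Centring each array on its median in place of its 75th percentile gave 1998 probes higher and 833 lower, which is 70.6% higher against 51.1% in the split above. The median change over all probes then moved from -0.01 to 0.08. With normexp background correction, which included an offset of 50 added to every intensity, it moved to 0.15, and 536 probes and 44 genes passed. Many calls named below were lost in this setting. An added offset shrinks the log2 changes of dim probes, so the offset and the background method cannot be told apart in those losses. The arrays lay on slides, and 3 slides held controls of both ages (2 and 2, 2 and 2, and 2 and 1 arrays). With slide as a block 2635 probes and 203 genes passed. Within single slides, where so few arrays allow little precision, 3, 5 and 2 probes passed. Of the 144 called genes considered for naming, 137 had the same sign in all 3 slides as in the whole comparison. Those genes were called on arrays that include the ones of the 3 slides, so this agreement is no separate evidence.

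The gene lists for fuel use and mitochondria had positive medians. All 8 measured genes of the respiratory chain and ATP synthase had positive changes and 5 passed (11.7% of named genes passed upward), with a list median of 0.50. Over all named genes the median was 0.02 and the mean -0.05. Of 15 mitochondrial carriers 5 passed, all upward, with a median of 0.28. Of 18 genes for glucose transport, glycolysis and glycogen 9 passed, all upward, with a median of 0.38. In this list 12 changes were positive and 6 negative, the lowest at -0.34. Of 8 genes for fatty acid uptake and oxidation 3 passed, all upward, with a median of 0.46. No member of these 4 lists passed in the downward direction. Rises were commoner among bright probes, with 603 of 3195 called higher in the brightest set and 152 of 3195 in the dimmest. Several called members of these lists, such as ATP5MC1 and SLC25A4, were bright. The share of 11.7% over all named genes was not matched for brightness. With the 3 outlying arrays left out, the counts of higher genes in the same order were 4, 5, 6 and 2. Leaving out 1 array at a time gave 4 to 6, 5 to 5, 5 to 10 and 1 to 3. The glycolysis count fell to 5 without 130-day fetus 3 or 4 and to 6 without 130-day fetus 1, 5 or 6 or 140-day fetus 1, 3 or 8. The fatty acid count fell to 1 without 130-day fetus 1 or 3 and to 2 without 130-day fetus 4 or 5 or 140-day fetus 1 or 3. With normexp correction, 3, 3, 2 and 1 genes of the lists passed. Within the 3 slides that held both ages the list medians, in the same order, were 0.59, 0.33, 0.33 and 0.53 in the first, 0.58, 0.54, 0.41 and 0.64 in the second and 0.46, 0.35, 0.45 and 0.65 in the third.

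**Figure D2:**
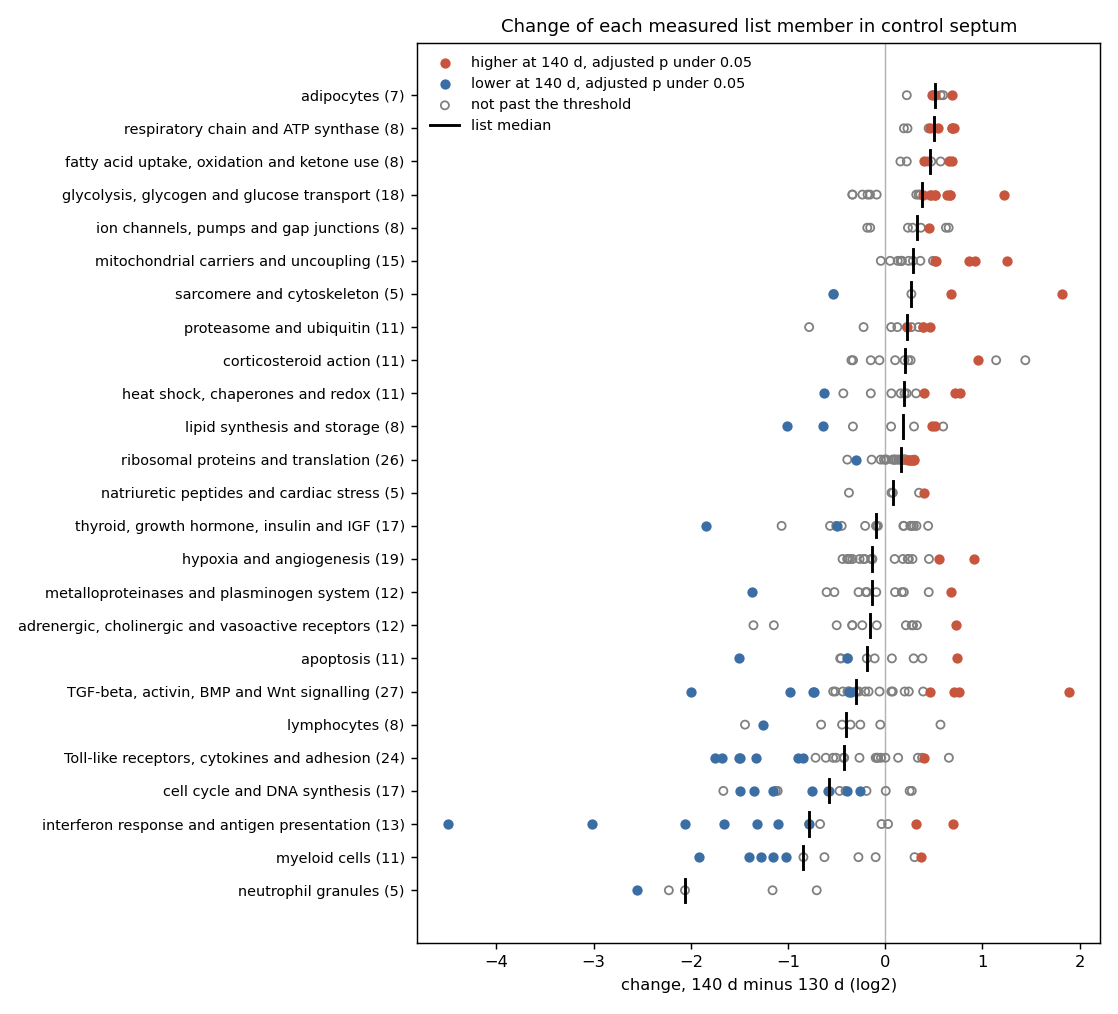
Changes of the measured members of gene lists (140 minus 130 days, log2), one point per gene, filled where the adjusted p was under 0.05, with a bar at the list's median. Lists with fewer than 5 measured genes, such as that of red blood cells, and lists without a called gene are not shown. The medians of lists for fuel use and mitochondria lie to the right of 0. Those for the cell cycle, white blood cells and immune responses lie to the left.

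SLC2A4 encodes GLUT4, the insulin-responsive glucose transporter of heart, skeletal muscle and fat. Its level was 2.92 at the lowest, 3.36 at the median and 4.13 at the highest at 130 days, and 4.17, 4.64 and 5.02 at 140 days. Every older fetus lay above every younger one, and the younger fetus closest to them was number 2. The change was 1.23 (SE 0.19), a 2.34-fold rise with an adjusted p of 0.000178 in limma. The array measured this gene with 2 probes that differ by a shift of 1 base, and the other probe rose by 1.16 with an adjusted p of 0.000246. Their first 30 of 60 bases are shown because the shifted pair is a repeat measurement of one stretch of the same transcript (5′ to 3′ as deposited, no base capitalised):

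SLC2A4, probe in use: ggcagggagaaaaaactgaaggtctgttgt

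SLC2A4, shifted probe: gggcagggagaaaaaactgaaggtctgttg

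The other called genes of glucose use had smaller changes, and 9 of the 18 genes in the list did not pass. HK1, which traps glucose as its phosphate, rose by 0.47 (SE 0.13), and ALDOA, the aldolase of muscle, rose by 0.52 (SE 0.12) with no overlap between ages (4.97 to 5.53 against 5.65 to 5.92). GAPDH, often taken as a reference gene, rose by 0.46 (SE 0.12), and its change was 0.25 and not past the threshold with quantile normalization. PYGL, a glycogen phosphorylase, rose by 0.64 (SE 0.16, adjusted p = 0.0065), from a median of 2.04 to 2.68, with 7 of 8 older fetuses above all younger ones. A second, dimmer PYGL probe changed by 0.39 (adjusted p = 0.128) and was not called. PFKM (0.66), the muscle phosphofructokinase, ENO3 (0.67), the muscle enolase, SLC16A1 (0.51), a lactate and pyruvate carrier, and PRKAA2 (0.39), a catalytic subunit of the energy sensor AMPK, were called with adjusted p-values of 0.0317 to 0.0424. These 4 calls were weak. They were lost in 6, 11, 6 and 11 of the 14 fits that left out 1 array, with adjusted p-values up to 0.0786, 0.0832, 0.0801 and 0.0954. A second ENO3 probe changed by 0.52 (adjusted p = 0.126) and was not called. With slide as a fixed block PFKM (0.63, adjusted p = 0.0747), ENO3 (0.61, adjusted p = 0.084) and SLC16A1 (0.44, adjusted p = 0.0874) did not pass, and without the 3 outlying arrays GAPDH (0.35, adjusted p = 0.1), PFKM (adjusted p = 0.105) and ENO3 (adjusted p = 0.124) did not. With normexp correction the genes of this list that passed were SLC2A4 and PYGL.

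Adenine nucleotide carriers exchange ADP for ATP across the inner mitochondrial membrane, and both members that passed were among the clearest rises. SLC25A4 (ANT1), the form of heart and skeletal muscle, had levels of 7.5, 7.90 and 8.53 at 130 days (lowest, median and highest) and of 8.58, 8.72 and 9.14 at 140 days. The lowest older fetus stood just above the highest younger one, again fetus 2, and the change was 0.86 (SE 0.14, adjusted p = 0.000305). SLC25A6 (ANT3) had levels of 4.32, 4.67 and 5.08 at 130 days and 5.38, 5.60 and 6.11 at 140 days, also without overlap, and rose by 0.93 (SE 0.14, adjusted p = 0.000171). The 2 carriers are close relatives, so their probes were compared. The longest run of bases that the probes share is 6 of 60, and their first 30 bases show how far they differ:

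SLC25A4: cctactttggagtctatgatacggccaagg

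SLC25A6: aaaggagccgacatcatgtacaagggcacc

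SLC25A11, the carrier that exchanges oxoglutarate for malate, rose by 0.53 (SE 0.14), and SLC25A26, which brings S-adenosylmethionine into mitochondria, rose by 0.51 (SE 0.15). A second, dimmer SLC25A11 probe changed by 0.36 (adjusted p = 0.148) and was not called. SLC25A33, a pyrimidine nucleotide carrier, rose by 1.26 (SE 0.20, adjusted p = 0.000252), with all 8 older fetuses (-0.75 to 0.31) above all 6 younger ones (-1.84 to -0.93). All 5 calls of the list held in each of the 14 fits that left out 1 array, and SLC25A4, SLC25A6 and SLC25A33 also passed with normexp correction.

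Among the respiratory chain genes, ATP5PO, a peripheral stalk subunit of ATP synthase, had levels of 5.98, 6.15 and 6.32 at 130 days and 6.34, 6.67 and 7.19 at 140 days. The groups did not overlap, and the change was 0.54 (SE 0.13, adjusted p = 0.00595). ATP5PD (0.71, SE 0.11) and ATP5MC1 (0.69, SE 0.15), subunits of the same enzyme, and NDUFA12 (0.69, SE 0.15), a subunit of complex I, were also higher in every older fetus. The dimmest ATP5MC1 probes changed by 0.22 and 0.32 and were not called. NDUFA2, another complex I subunit, rose by 0.46 (SE 0.14, adjusted p = 0.0215), and its call was lost without 130-day fetus 1 (0.43, adjusted p = 0.0555) or 3 (0.42, adjusted p = 0.0568), with slide as a fixed block (0.42, adjusted p = 0.0527) and without the 3 outlying arrays (0.39, adjusted p = 0.0968). COX5A, a subunit of cytochrome oxidase, changed by 0.45 (SE 0.17) with an adjusted p of 0.0704, and passed with median centring (0.54), with quantile normalization (0.55) and with slide as a fixed block (0.65, adjusted p = 0.00987). The COX5A probe was dim, at -5.05 to -3.37, well below the called genes of this list. With quantile normalization, which compresses the brightest probes, ATP5MC1 (0.34), ATP5PO (0.30) and NDUFA2 (0.29) kept their sign but did not pass. NDUFA12, ATP5MC1 and ATP5PD passed with normexp correction.

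Further mitochondrial genes outside the fuel and mitochondrial lists were picked after their values were seen. Apart from MTHFD2, all of those given here rose, so they do not show what share of mitochondrial genes did. MTHFD2, a mitochondrial folate enzyme described below, fell by 1.18. GRPEL1, a cochaperone of protein import into the matrix, rose by 0.72 (SE 0.15) with no overlap (-0.77 to -0.63 against -0.41 to 0.29). GLRX2, a mitochondrial glutaredoxin, rose by 0.70 (SE 0.16), again without overlap. SLIRP, which stabilises mitochondrial messenger RNAs, rose by 0.69 (SE 0.14), and CHCHD3, a protein of the cristae junctions, by 0.50 (SE 0.13). ENDOG, a mitochondrial nuclease, was among the largest rises in no list. Its levels were 1.11, 1.42 and 1.67 at 130 days and 1.95, 2.34 and 2.60 at 140 days, with no overlap, and the change was 0.92 (SE 0.14, adjusted p = 0.000178). SOD2, the superoxide dismutase of the matrix, rose by 0.72 (SE 0.18, adjusted p = 0.00875). GRPEL1, GLRX2, SLIRP and ENDOG passed with normexp correction, CHCHD3 (0.47) and SOD2 (0.65) did not, and CHCHD3 also missed the threshold with quantile normalization (0.30).

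For fatty acids, CPT1B, the muscle form of the carnitine palmitoyltransferase that admits long-chain fatty acids to mitochondria, had levels of 2.04, 2.28 and 2.67 at 130 days and 2.58, 2.98 and 3.39 at 140 days. All but 1 of the older fetuses lay above all younger ones. The change was 0.66 (SE 0.20, adjusted p = 0.0229), and the call was lost without 130-day fetus 1 (0.63, adjusted p = 0.0525) or 3 (0.60, adjusted p = 0.0602). CPT1A, the liver form, changed by 0.44 with an SE of 0.45 and an adjusted p of 0.523, so no difference could be shown for it at this spread. PPARA, a nuclear receptor that induces fatty acid oxidation genes, rose by 0.40 (SE 0.13, adjusted p = 0.0346), a call lost in 6 of the 14 fits without 1 array with adjusted p-values up to 0.0826, with slide as a fixed block (0.39, adjusted p = 0.0513) and without the 3 outlying arrays (0.37, adjusted p = 0.0897). LPL, which releases fatty acids from circulating triglycerides, rose by 0.69 (SE 0.17) and passed with normexp correction too. PLIN5, a lipid droplet protein of oxidative tissues, rose by 0.98 (SE 0.27, adjusted p = 0.0125), from levels of -3.53, -3.26 and -2.02 to -2.58, -2.14 and -1.42. The groups overlapped only through 130-day fetus 2, which alone held the value of -2.02. ACSS2, which activates acetate, rose by 0.96 (SE 0.23, adjusted p = 0.00549), with 7 of 8 older fetuses above all younger ones. With normexp correction ACSS2 passed and PLIN5 (0.83) did not.

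Of 11 adipocyte markers 7 were measured, and all 7 had positive changes with a median of 0.51. PLIN1 (0.48, SE 0.12), LEP (0.51, SE 0.11, on 1 of its 3 probes) and LPL passed, where 11.7% of all named genes passed upward. Of these, PLIN1 (0.43, adjusted p = 0.166) and LEP (0.53, adjusted p = 0.258) did not pass with normexp correction. The mean of the list, with each gene centred on its mean over the 14 arrays, ran from -0.66 to 0.36 at 130 days and from -0.35 to 1.38 at 140 days, so the groups overlapped. FABP4 was well above background on 4 of 6 younger and 3 of 8 older arrays, and the defining marker ADIPOQ was not measured under its name. LPL is also a gene of heart muscle. The part of fat cells in the rises of the lipid genes was not tested.

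**Figure D3:**
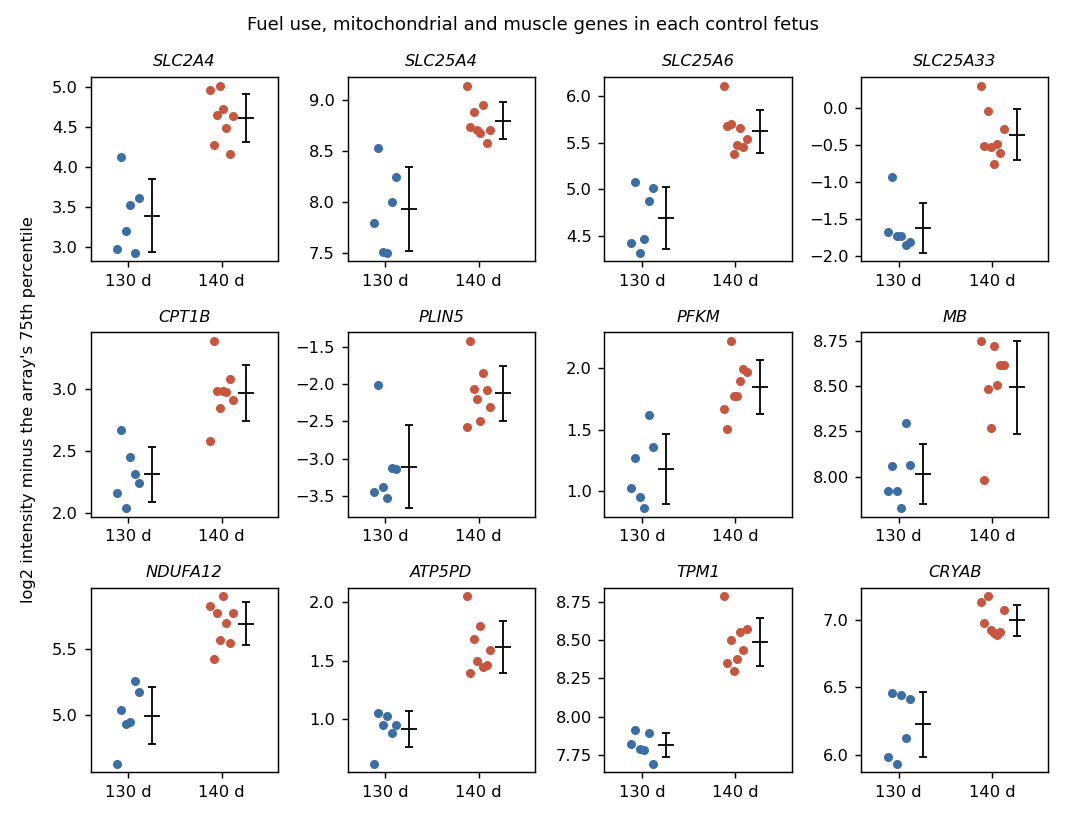
Normalized levels (log2, relative to the 75th percentile of each array) of 12 fuel-use, mitochondrial and muscle genes in each control fetus, blue for 130 days (n = 6) and red for 140 days (n = 8), points in order of replicate number, with the mean and SD beside each group. In SLC2A4, SLC25A4, SLC25A6, SLC25A33, NDUFA12, ATP5PD, TPM1 and CRYAB every 140-day fetus lies above every 130-day fetus; in PLIN5 the single high 130-day point is fetus 2.

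Of 39 genes listed for the sarcomere and cytoskeleton 5 were measured under a listed symbol. At 140 days 2 of them were called higher and 1 lower, and TPM1 was the sarcomere gene among them. It encodes tropomyosin 1 of the thin filament and was higher in every older fetus. Its levels were 7.69, 7.8 and 7.91 at 130 days and 8.30, 8.47 and 8.79 at 140 days, and the change was 0.67 (SE 0.09, adjusted p = 0.000119). It kept its sign but did not pass with quantile normalization (0.27). TUBA4A, an alpha-tubulin, rose by 1.82 (SE 0.38), with no overlap (-1.65 to 0.97 against 1.01 to 2.02). CFL1, a cofilin that severs actin filaments, fell by 0.54 (SE 0.18, adjusted p = 0.0329), a call lost without 130-day fetus 1 (-0.45, adjusted p = 0.0955), 3 (-0.50, adjusted p = 0.0756) or 6 (-0.53, adjusted p = 0.0548) and with median centring (-0.45), as well as without the 3 outlying arrays (-0.41, adjusted p = 0.0517).

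CRYAB, the small heat shock protein that protects desmin and titin in muscle, had levels of 5.94, 6.27 and 6.46 at 130 days and 6.89, 6.95 and 7.17 at 140 days. The older values lay within a narrow band above all younger ones, and the change was 0.77 (SE 0.14, adjusted p = 0.000693). MB rose by 0.48 (SE 0.15, adjusted p = 0.0282), from a median of 7.99 to 8.56, with 6 of 8 older fetuses above all younger ones. Its call was lost without 130-day fetus 1 (0.46, adjusted p = 0.0606), 3 (0.46, adjusted p = 0.0615) or 4 (0.44, adjusted p = 0.0631) or without 140-day fetus 1 (0.44, adjusted p = 0.0527) or 5 (0.44, adjusted p = 0.0506), and quantile normalization left a change of 0.09. CKB, the brain form of creatine kinase, rose by 0.82 (SE 0.27, adjusted p = 0.0381), with calls lost without 130-day fetus 4, 5 or 6 or 140-day fetus 1 or 3 (0.68 to 0.80, adjusted p up to 0.0968). NEB (1.37) and MYOG (0.95), known from skeletal muscle, were called at adjusted p-values of 0.0254 and 0.0394. NEB was well above background on only 3 of 6 younger arrays, and its call was lost without 130-day fetus 4 (1.16, adjusted p = 0.0701) or 6 (1.00, adjusted p = 0.0818). MYOG lost its call in 10 of 14 such fits, with adjusted p-values up to 0.074. ATP1B1, a subunit of the sodium pump, was the called gene among 8 ion channels and pumps, at 0.45 (SE 0.11) with ranges that met at their ends (5.30 to 5.67 against 5.67 to 6.23), and quantile normalization left it short of the threshold at 0.23. Without the 3 outlying arrays MB (0.43, adjusted p = 0.117), CKB (0.82, adjusted p = 0.0724) and MYOG (0.84, adjusted p = 0.152) did not pass. Of the genes named for muscle, TPM1, TUBA4A and CRYAB passed with normexp correction.

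The insulin-like growth factor system held the largest fall among 17 growth hormone, insulin and thyroid genes. IGFBP2, a binding protein that is abundant in fetal tissues and restrains insulin-like growth factors, had levels of 1.59, 3.57 and 3.72 at 130 days and 0.65, 1.47 and 2.18 at 140 days. Apart from fetus 2 of the younger group, which held the 1.59, all younger fetuses stood at 3.46 or more and all older fetuses at 2.18 or less. The change was -1.84 (SE 0.35), 3.58-fold lower with an adjusted p of 0.000963. IGFBP4, another binding protein, fell by 0.50 (SE 0.18, adjusted p = 0.0495), a call lost in 10 of 14 fits without 1 array with adjusted p-values up to 0.112, with median centring (-0.41) and without the 3 outlying arrays (-0.49, adjusted p = 0.123). Of the 2, IGFBP2 passed with normexp correction. IGF2, the main fetal growth factor of the pair, had levels of 6.65, 6.79 and 7.22 at 130 days and 3.03, 6.1 and 6.61 at 140 days. No older fetus reached the lowest younger one, and fetus 1 of the older group lay far under all others. The change of -1.07 (SE 0.38) had an adjusted p of 0.0518 and did not pass. A second, dimmer IGF2 probe changed by -1.43 (SE 0.43) and did pass (adjusted p = 0.023), as did the mean of both probes (-1.25). Without older fetus 1 the first probe changed by -0.67 (adjusted p = 0.0486), and it also passed without older fetus 4 (-1.18, adjusted p = 0.0378), 5 (-1.16, adjusted p = 0.0437) or 7 (-1.14, adjusted p = 0.0478). IGF1 changed by -0.57 (SE 0.36) with an adjusted p of 0.276. The receptors of insulin and of both growth factors did not pass, and no member of this list was called higher.

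Of 17 cell cycle genes measured, 8 were called lower at 140 days and none higher (9.62% of named genes passed downward). The other 9 did not pass, and 14 of the 17 had negative changes with a median of -0.58. LMNB1, the lamin of proliferating nuclei, had levels of -3.71, -2.01 and -1.30 at 130 days and -3.70, -3.33 and -3.13 at 140 days. All younger fetuses but fetus 2 stood above every older one, and fetus 2, at -3.71, stood with the lowest older one, at -3.70. The change was -1.16 (SE 0.24, adjusted p = 0.00235). HMGB2, a chromatin protein of dividing cells, fell by 0.59 (SE 0.15, adjusted p = 0.00697) with no overlap, from 1.69 to 2.49 down to 1.14 to 1.67. TYMS (-1.49, SE 0.38), which makes thymidylate for DNA synthesis, and CCNA2 (-1.35, SE 0.47), cyclin A2, were both lower in fetus 2 of the younger group than in any older fetus. DNMT1, which copies DNA methylation at replication, changed by -0.58 (SE 0.18), AURKA, a mitotic kinase, by -0.75 (SE 0.24) and CDK4, a G1 kinase, by -0.26 (SE 0.08), each past the threshold. PCNA, the replication clamp, changed by -0.41 (SE 0.18) with an adjusted p of 0.106, and ASPM, a spindle protein, by -1.67 (SE 0.65) with an adjusted p of 0.0726.

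Leaving out single younger fetuses moved the number of these calls both up and down. The mean of the list over centred genes was -0.77 in 130-day fetus 2, against 0.45 to 0.83 in the other 5 younger fetuses and -0.43 to -0.10 in the 8 older fetuses. Without fetus 2 the called genes numbered 12, and without the 3 outlying arrays 11, PCNA (-0.68) and ASPM (-2.33) among them. The count fell to 3 without 130-day fetus 1, to 5 without fetus 3 or 4 and to 4 without fetus 5. CCNA2 lost its call in 12 of 14 fits without 1 array (adjusted p up to 0.116). AURKA lost it without 130-day fetus 1, 3, 4 or 5 or 140-day fetus 8 (-0.75 to -0.61, adjusted p up to 0.081), DNMT1 without 130-day fetus 1 (-0.54, adjusted p = 0.0582) or 5 (-0.52, adjusted p = 0.0598), and CDK4 without 130-day fetus 1 (-0.22, adjusted p = 0.0605). LMNB1, HMGB2 and TYMS kept theirs in all 14. With slide as a fixed block 7 of the list were called: ASPM passed (-1.85, adjusted p = 0.0455), while AURKA (-0.64, adjusted p = 0.0817) and CCNA2 (-1.26, adjusted p = 0.0896) did not. Under normexp correction HMGB2 was the called gene of the list, and with median centring CCNA2 (-1.26) and CDK4 (-0.17) did not pass. Within the 3 slides the list median was -0.40, -0.51 and -0.71.

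LGALS1, galectin 1, which is abundant in immature and connective tissue cells, fell by 1.35 (SE 0.25, adjusted p = 0.000872), from 1.61, 2.89 and 3.89 to 1.14, 1.63 and 2.14. MTHFD2, the mitochondrial folate enzyme of proliferating and embryonic cells, fell by 1.18 (SE 0.32, adjusted p = 0.012). CAPN3, a muscle calpain, fell by 1.26 (SE 0.26, adjusted p = 0.00192) with no overlap, and CIB1, a small calcium-binding protein, by 0.82 (SE 0.13, adjusted p = 0.000288). The CIB1 values at 140 days lay between 0.99 and 1.16, all below the lowest younger fetus at 1.30, and with normexp correction CIB1 and LGALS1 still passed.

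Genes of red blood cells had a list median of -2.59, the furthest from 0 of the lists, over 4 measured genes of 19 listed. Of the 4, 3 were called lower, against 9.62% of all named genes. HBBF, the fetal beta-globin that sheep replace with adult globin around birth, had levels of -2.43, -0.78 and 0.44 at 130 days and -5.76, -4.42 and -1.69 at 140 days. All but 1 of the older fetuses lay below all younger ones, and the change was -3.17 (SE 0.82), 9.0-fold lower with an adjusted p of 0.00907. HBB, the adult beta-globin, had levels of 4.05, 5.15 and 5.81 at 130 days and 1.59, 2.59 and 4.80 at 140 days, and fell by 2.00 (SE 0.58, adjusted p = 0.0176). A second HBB probe changed by -1.54 with an adjusted p of 0.086. The HBBF and HBB probes share at most 6 bases in a run, and both fell. Globin genes exist as near-identical copies, so neither probe can be assigned to one copy. AHSP, the chaperone of free alpha-globin, fell by 3.26 (SE 0.70, adjusted p = 0.00273), and with normexp correction its change was -1.0 and did not pass. The mean of the list ran from 0.25 to 1.83 at 130 days and from -2.19 to 0.90 at 140 days. Older fetuses 6, 7 and 8 held the highest HBB values of their group, at 4.00 to 4.80, and the other 5 stood at 1.59 to 2.82. These 3 arrays are the older controls on slide 5, which held no 130-day control, so slide and this difference within the older group cannot be told apart. With slide as a fixed block HBB changed by -2.40 (adjusted p = 0.00414) and HBBF by -2.96 (adjusted p = 0.026). All 3 calls held in each of the 14 fits without 1 array, and the list median within the 3 slides was -2.65, -4.24 and -2.22. In pieces of tissue, fewer cells of a type and less RNA per cell cannot be told apart, and how much blood each septum sample held is not given in the labels.

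Several immune lists held more called falls than rises, where 9.62% of all named genes were called lower and 11.7% higher. Of 13 interferon-response and antigen-presentation genes 7 were lower and 2 higher, with a median of -0.79. Of 24 Toll-like receptors, cytokines and adhesion molecules 7 were lower and 1 higher, with a median of -0.43, and of 11 myeloid markers 5 were lower and 1 higher, with a median of -0.84. With normexp correction 3, 0 and 1 of them were called lower. The list medians were then -0.70, 0.17 and -0.45, against a median of 0.15 over all probes. The cytokine list median thus changed sign but lay near that of all probes. Without 130-day fetus 3 the medians were -0.45, -0.31 and -0.82, and without the 3 outlying arrays they were -0.47, -0.20 and -0.71. Within the 3 slides the medians were -0.82, -1.45 and -0.95 for the interferon list, -0.08, -0.59 and -0.42 for the cytokine list and -1.07, -1.32 and -0.64 for the myeloid list. IL10, an anti-inflammatory cytokine, had levels of -5.26, -4.59 and -3.87 at 130 days and -6.80, -6.25 and -6.06 at 140 days. The groups did not overlap, and the change was -1.76 (SE 0.27, adjusted p = 0.000228). Its probe was well above background on all 6 younger and 6 of 8 older arrays, and normexp correction reduced the change to -0.13. TNF fell by 1.5 (SE 0.35) and IL18 by 1.5 (SE 0.38), and both missed the threshold with normexp correction, at -0.32 and -0.25. IL1A was not well above background on any of the 8 older arrays and was at least 1.35-fold lower there (adjusted p = 0.00303), a bound taken against the dimmest probes well above background. With normexp correction its change turned to 0.23 (adjusted p = 0.742). IFNG, interferon gamma, went the other way: it rose by 0.69 (SE 0.12, adjusted p = 0.00038) with no overlap, from -4.77 to -4.30 up to -4.08 to -3.51, while the interferon-induced genes CXCL10 (-4.49), ISG15 (-3.01), MX1 (-2.06) and IRF1 (-1.66) fell. CXCL10, ISG15 and MX1 passed with normexp correction, and IRF1 (-0.98) and IFNG (0.67) did not.

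CXCL1, a neutrophil-attracting chemokine, also rose, by 0.40 (SE 0.09, adjusted p = 0.00338), with all older fetuses (7.62 to 8.02) above all younger ones (7.31 to 7.60). It did not pass with quantile normalization (0.14) or normexp correction (0.34, adjusted p = 0.21). TRAF3, an adaptor of immune receptor signalling, fell by 0.75 (SE 0.14) with no overlap, but its change was 0.07 with normexp correction. CTSS, the cathepsin that prepares antigen in myeloid cells, fell by 1.37 (SE 0.30, adjusted p = 0.0033) with no overlap (-1.03 to 1.62 against -1.87 to -1.04) and passed with normexp correction too. CD86 (-1.28, SE 0.34), a costimulatory molecule (-0.59 and not past the threshold as the mean of its probes), and FCGR1A (-1.91, SE 0.44), an immunoglobulin receptor, fell with the integrin ITGB2 (-1.02, SE 0.24), whose groups did not overlap, and none of these 3 passed with normexp correction (-0.55, -0.45 and -0.72). Without the 3 outlying arrays CD86 (-0.90, adjusted p = 0.0956) and ITGB2 (-0.71, adjusted p = 0.0575) did not pass. TYROBP, the signalling partner of many myeloid receptors, was the 1 myeloid marker called higher (0.37, SE 0.11). Its call was lost without 130-day fetus 3 (0.34, adjusted p = 0.0564) or 6 (0.33, adjusted p = 0.0551) and with normexp correction (0.34, adjusted p = 0.101).

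Fetus 3 of the younger group stood highest of its age in MX1, MX2, CD86, FCGR1A and CTSS, at 3.86, 2.71, -1.38, -1.40 and 1.62. The myeloid list mean was 1.29 in this fetus, against -0.22 to 0.57 in the other 5 younger fetuses and -0.52 to -0.06 in the older ones. Leaving it out ended the calls of ALOX5AP (-0.58, adjusted p = 0.0732), LYZ (-1.11, adjusted p = 0.0641) and CLEC6A (-1.25, adjusted p = 0.061) and reduced MX2 from -1.32 to -0.81, still past the threshold, which it missed without all 3 outlying arrays (-0.66, adjusted p = 0.0768). CLEC6A also missed it with slide as a fixed block (-1.75, adjusted p = 0.0601). Without it 5 interferon-list, 5 cytokine-list and 4 myeloid genes remained called lower. Without all 3 outlying arrays the counts were 4, 5 and 1. The single myeloid call then left was 1 of 11, which is near the share of all named genes that fell.

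**Figure D4:**
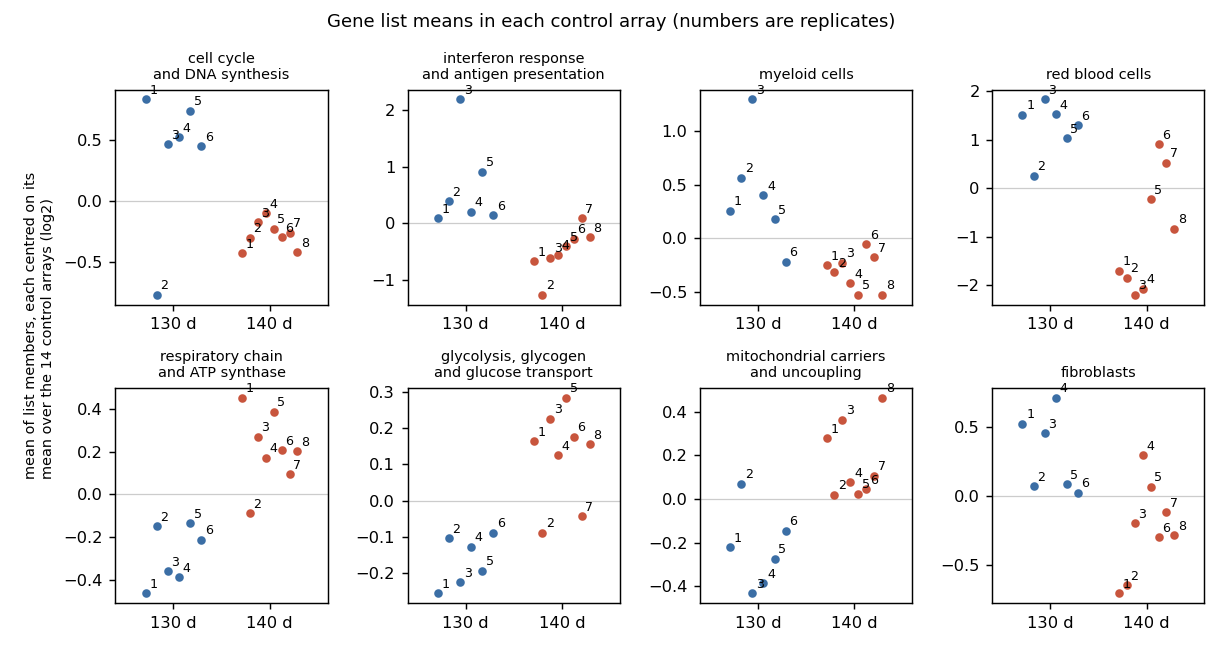
Mean of each of several gene lists in each control fetus (every gene centred on its mean over the 14 arrays, log2 units), blue for 130 days and red for 140 days, points in order of replicate number. Fetus 2 of the 130-day group sits with the older fetuses in the cell cycle list, and fetus 3 of that group is the highest point in the interferon and myeloid lists.

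Probes for the major histocompatibility complex carried the same direction. All 16 class I probes had negative changes with a median of -1.15, and 5 were called, while all 11 class II probes had negative changes with a median of -1.06, and 6 were called, against a median of -0.01 and 9.35% called lower over all probes. Genes of this complex exist as near-identical copies, so a probe cannot be assigned to one locus, and the probes are not independent readings. B2M, the light chain of class I, changed by -0.67 and -0.65 on its 2 probes (adjusted p = 0.0641 and 0.0787) and was not called. It passed with quantile normalization (-0.82, adjusted p = 0.0267). MHCII-DRB1, a class II chain, had levels of -0.46, 0.10 and 2.48 at 130 days and -3.62, -0.97 and -0.39 at 140 days and fell by 1.72 (SE 0.46, adjusted p = 0.0116). The value of 2.48 was that of fetus 3. Without the 3 outlying arrays the gene changed by -1.47 (adjusted p = 0.0446). None of 31 immunoglobulin or 6 T19 scavenger receptor probes and no T-cell receptor probe was called. Of 8 lymphocyte markers LCK, a T-cell kinase, was called lower (-1.26, SE 0.40, adjusted p = 0.0273), with the call lost without 130-day fetus 3 (-1.17, adjusted p = 0.0672), 4 (-1.19, adjusted p = 0.0564) or 5 (-1.21, adjusted p = 0.0541) or the 3 outlying arrays (-1.25, adjusted p = 0.0834) and a change of 0.01 with normexp correction. Of 5 neutrophil granule genes CATHL1B, a cathelicidin, was called lower (-2.55, SE 0.74), a call lost without the 3 outlying arrays (-1.93, adjusted p = 0.127) and with normexp correction (-2.06, adjusted p = 0.0554). BAC5, another, changed by -2.06 with an adjusted p of 0.0628. With slide as a fixed block it passed (-2.45, adjusted p = 0.0194), and 3 of the 5 were called lower.

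**Figure D5:**
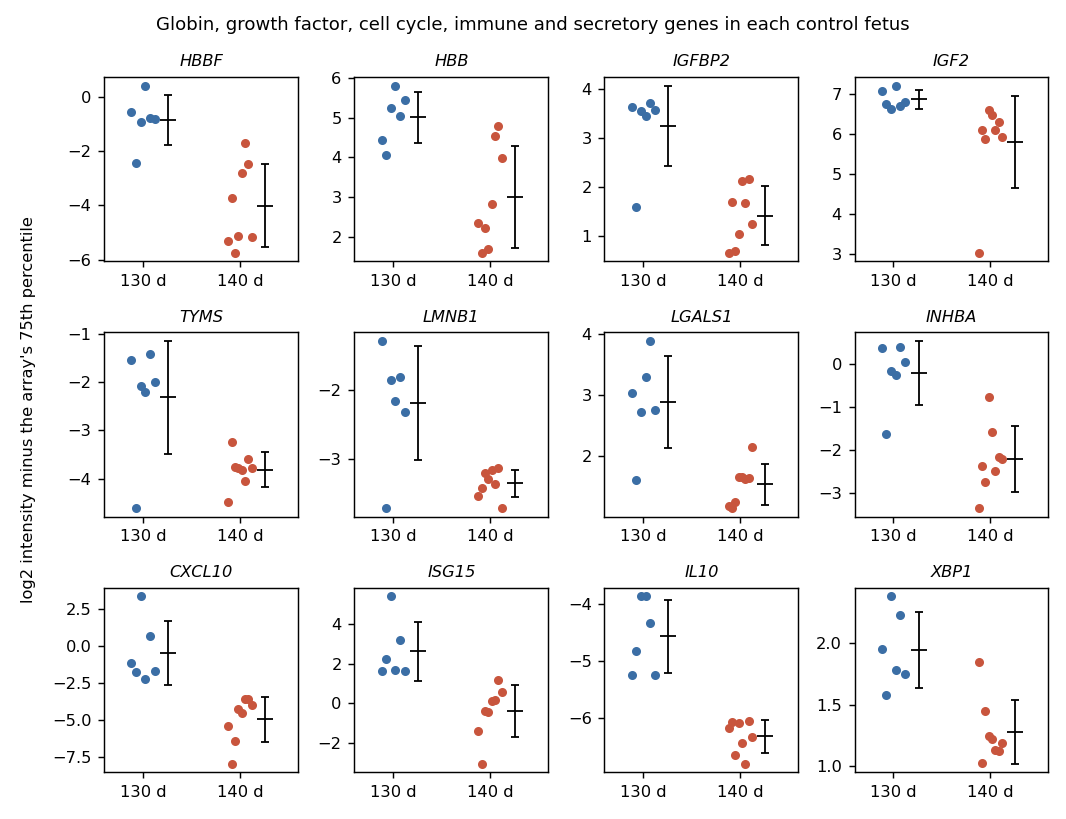
Normalized levels (log2, relative to the 75th percentile of each array) of 12 globin, growth factor, cell cycle, immune and secretory genes in each control fetus, blue for 130 days (n = 6) and red for 140 days (n = 8), points in order of replicate number, with the mean and SD beside each group. In IGFBP2, TYMS and LMNB1 the single low 130-day point is fetus 2, in IGF2 the single low 140-day point is fetus 1, and in CXCL10 and ISG15 the highest 130-day point is fetus 3.

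Of 27 genes of transforming growth factor, bone morphogenetic protein and Wnt signalling 6 were called lower and 4 higher, with a list median of -0.30, against 9.62% and 11.7% of all named genes. One of the 4, SMAD3, rested on probes that differed, as described below. Among ligands, INHBA, which forms activin A, fell by 2.00 (SE 0.51), TGFB2 by 0.98 (SE 0.25, lost without the 3 outlying arrays at -0.77, adjusted p = 0.0665) and TGFB1 by 0.74 (SE 0.21). Among receptors, ACVR1, a type I receptor for bone morphogenetic proteins and activins, had levels of -1.70, -1.54 and -1.33 at 130 days and -2.53, -2.29 and -1.94 at 140 days. The groups stood apart, and the change was -0.73 (SE 0.12, adjusted p = 0.000348), reduced to -0.46 and not past the threshold with normexp correction. TGFBR2, the type II receptor for transforming growth factor, moved up by 0.46 (SE 0.12, adjusted p = 0.0114), also with no overlap (-2.44 to -2.07 against -1.91 to -1.47), and BMPR1B, a bone morphogenetic protein receptor, by 0.76 (SE 0.24, adjusted p = 0.0274), a call lost in 6 of 14 fits without 1 array (adjusted p up to 0.0816) and without the 3 outlying arrays (0.63, adjusted p = 0.136). Of the signal carriers, SMAD2 fell by 0.35 (SE 0.09, adjusted p = 0.00894) with no overlap (-0.66 to -0.51 against -1.35 to -0.69), but not with median centring (-0.26). ITGAV, an integrin chain that activates latent ligand, changed by -0.37 (SE 0.12, adjusted p = 0.0293), a call lost in 7 of 14 such fits (adjusted p up to 0.0787) and with median centring (-0.28), and its partner ITGB6 by 1.89 (SE 0.54), a call lost without 130-day fetus 1 (1.68, adjusted p = 0.0517) and with slide as a fixed block (1.66, adjusted p = 0.0585). A second ITGAV probe changed by -0.23 (adjusted p = 0.199) and was not called. The count of higher genes in this list fell to 1 without 130-day fetus 1 and to 2 without 130-day fetus 3 or 4 or 140-day fetus 3. With normexp correction INHBA was the called gene, and the list median was 0.11, against a median of 0.15 over all probes.

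The rise of SMAD3, the partner of SMAD2, rested on 1 of 2 probes. The probe in use rose by 0.71 (SE 0.23, adjusted p = 0.0303), and a probe shifted by 1 base changed by -0.35 (SE 0.48, adjusted p = 0.641). Of 184 pairs of probes on this array that are shifted by 1 base, 158 (85.9%) had the same sign of change, with a median difference of 0.07. Both probes were called in 32 pairs, all with the same sign, and 1 probe alone in 18, of which 3 had opposite signs, SMAD3 and LEP among them. For LEP, the fat-cell hormone leptin, the changes were 0.51 and -0.09. The first 30 of 60 bases of these discordant pairs are:

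SMAD3, changed by 0.71: tcgtatggatgagggaacgaaggcccaggg

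SMAD3, changed by -0.35: gtcgtatggatgagggaacgaaggcccagg

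LEP, changed by 0.51: acagatcctcgccagtctgccttccagaaa

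LEP, changed by -0.09: aacagatcctcgccagtctgccttccagaa

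Read as the mean of all probes of the gene, SMAD3 changed by 0.18 and LEP by 0.18, and neither passed. SMAD3 was also lost without 130-day fetus 1, 3 or 4 or 140-day fetus 3 (0.57 to 0.71, adjusted p up to 0.0876) or the 3 outlying arrays (0.63, adjusted p = 0.128). Over all 91 called genes with several probes, the probes had 1 sign in 84 genes and were all called in 58, and no gene had probes called in opposite directions.

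Several genes of the secretory pathway were picked after their values were seen, so they carry no count of their own, and they were called in both directions. XBP1, the transcription factor of the unfolded protein response, had levels of 1.58, 1.87 and 2.38 at 130 days and 1.03, 1.21 and 1.84 at 140 days. All but 1 of the older fetuses lay below all younger ones, fetus 1 being the exception, and the change was -0.67 (SE 0.15, adjusted p = 0.00413). PDIA4, a disulfide isomerase of the endoplasmic reticulum, fell by 0.72 (SE 0.17, adjusted p = 0.00503), from a median of -1.51 to -2.29. HSPA5 (BiP), the main chaperone of that compartment and a member of the fixed chaperone list, changed by -0.63 (SE 0.21, adjusted p = 0.0342), a call lost in 7 of 14 fits without 1 array (adjusted p up to 0.0941). PDIA5, another isomerase, changed by -0.45 (SE 0.13, lost without 130-day fetus 1 at -0.40, adjusted p = 0.0533). PPIB, a prolyl isomerase for collagen, changed by -0.29 (SE 0.09) with no overlap, a call lost without 130-day fetus 1, 5 or 6 or 140-day fetus 2 (-0.29 to -0.26, adjusted p up to 0.0628). PRKCSH, a glucosidase II subunit, changed by -0.60 (SE 0.21, adjusted p = 0.0468). Its value of -4.33 in older fetus 1 lay far below the other 7 (-2.53 to -2.21), the change was -0.36 without that fetus, and the call was lost in 7 of 14 fits (adjusted p up to 0.0951). ATF6 (0.64, SE 0.21) and DERL1 (0.44, SE 0.12), which sense and clear misfolded proteins in the same compartment, were called higher, ATF6 weakly, since 6 of 14 fits lost it (adjusted p up to 0.1). With slide as a fixed block HSPA5 (-0.58, adjusted p = 0.0753) and ATF6 (0.57, adjusted p = 0.0685) did not pass, nor did HSPA5 (adjusted p = 0.0684), ATF6 (adjusted p = 0.0764) and PDIA5 (adjusted p = 0.0631) without the 3 outlying arrays. With normexp correction XBP1 and DERL1 passed, and with median centring HSPA5 (-0.54), PPIB (-0.20) and PRKCSH (-0.51) did not.

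None of 12 matrix genes and none of 7 fibroblast markers was called, against 21.3% of all named genes in either direction and 9.62% lower. Lists this short can hold no call at such shares. Of the matrix genes 9 had negative and 3 positive changes, with a median of -0.32, and all 7 fibroblast markers had negative changes with a median of -0.53. DCN, the proteoglycan decorin, had levels of 5.54, 5.67 and 5.99 at 130 days and 4.85, 5.38 and 5.50 at 140 days, which did not overlap, yet the change of -0.45 (SE 0.18) had an adjusted p of 0.0676 (-0.67 and past the threshold with quantile normalization, and -0.54 and past it with slide as a fixed block, adjusted p = 0.0219). The fibroblast list mean ran from 0.02 to 0.71 at 130 days and from -0.70 to 0.30 at 140 days. These markers moved the same way as LGALS1, PPIB and TGFB1, and the part of a smaller fibroblast share in those falls was not tested. None of 8 endothelial markers was called, with a median of -0.24 and the list mean lowest, at -0.84, in older fetus 1. ROBO4, a receptor of endothelial cells that was in no list, rose by 0.99 (SE 0.17, adjusted p = 0.000451), with 7 of 8 older fetuses (lowest of the group -0.44) above all younger ones (highest -0.42). Its second, dimmer probe changed by 0.32 (adjusted p = 0.0613) and was not called.

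Proteasome and ubiquitin genes were called higher in 4 of 11, with a median of 0.22. Of all named genes 11.7% were called higher, a share not matched for brightness. PSMB7, a catalytic core subunit, rose by 0.39 (SE 0.08, adjusted p = 0.00278) and PSMD4, the ubiquitin receptor of the cap, by 0.46 (SE 0.11, adjusted p = 0.00579), both with no overlap. PSMA6, a core subunit, rose by 0.39 (SE 0.11), and UBB, ubiquitin B, by 0.22 (SE 0.08), the latter turning to -0.11 with quantile normalization and lost in 11 of 14 fits without 1 array (adjusted p up to 0.137). Median centring raised the list's count to 7, with normexp correction PSMD4 alone passed, and without the 3 outlying arrays 2 did, PSMA6 (0.29, adjusted p = 0.104) and UBB (adjusted p = 0.0729) being lost. Of 26 ribosomal and translation genes 6 were called, near the 21.3% of all named genes. Of these, 5 were higher and 1 lower, with changes of -0.30 to 0.29. This direction depended on the scaling: the list median was 0.16 above, 0.25 with median centring (9 higher) and -0.12 with quantile normalization (3 lower and none higher), and none was called with normexp correction. Without 130-day fetus 3 none of the list was called higher, without fetus 1 or 6 of that age 1 was, without 130-day fetus 5 or 140-day fetus 1, 5, 6 or 8 the count was 2, and without 140-day fetus 3 or 4 it was 3.

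Of 11 genes of corticosteroid action 1 passed, against 21.3% of all named genes. HSD11B1, which regenerates cortisol within cells, rose by 0.95 (SE 0.25, adjusted p = 0.0105) with no overlap, from -3.16, -2.63 and -2.21 to -2.18, -1.74 and -0.89. HSD11B2, which inactivates cortisol, changed by 1.44 (SE 0.56) with an adjusted p of 0.0712, and its values were dominated by a level of -0.12 in older fetus 3, against -6.00 to -3.34 in the other 7. It passed with median centring (1.53) and with quantile normalization (1.56). The glucocorticoid receptor NR3C1 changed by 0.20 (SE 0.16, adjusted p = 0.422). EDNRB, the endothelin B receptor, was the called gene of 5 in the cardiac stress list (0.40, SE 0.13). EDNRB was 0.10 and not called as the mean of its probes, and was lost without 130-day fetus 3, 5 or 6 or 140-day fetus 2 (0.36 to 0.40, adjusted p up to 0.0713). BCL2L1, which protects mitochondria from apoptosis, rose by 0.74 (SE 0.18, adjusted p = 0.00592), and PDXK, which makes the active form of vitamin B6, by 0.95 (SE 0.18, adjusted p = 0.000872), without overlap. Of the called genes of this paragraph, PDXK passed with normexp correction. None of 9 early-response genes, 8 cardiac and other transcription factors or 5 genes of the tricarboxylic acid cycle and amino acids was called.

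The same age step in the 13 fetuses of cortisol-infused ewes gave 1720 called probes (13.5%). The difference of the age change between arms was tested as an interaction for every probe, and 0 probes passed in limma, with a lowest adjusted p of 0.203 and 743 probes (5.81%) at an unadjusted p under 0.05. No change above is therefore shown to be particular to the vehicle arm. The medians of the respiratory chain, mitochondrial carrier, glucose and fatty acid lists were 0.50, 0.28, 0.38 and 0.46 in controls and 0.31, 0.09, 0.24 and 0.55 under cortisol. Changes of single fuel genes were 1.23 in controls and 1.09 under cortisol for SLC2A4, 0.86 and 0.83 for SLC25A4, 0.93 and 0.85 for SLC25A6 and 0.66 and 0.61 for CPT1B. Several immune genes lay further apart: IRF1 -1.66 in controls and 0.45 under cortisol, ICAM1, an adhesion molecule of vessel walls, -1.33 and 0.40, IL10 -1.76 and -0.55, and IFNG 0.69 and 0.03, with unadjusted interaction p-values of 0.00054, 0.0011, 0.005 and 0.00059 in the same limma fit. These genes were singled out for the size of that difference, so the unadjusted p-values are descriptions.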

How the data were processed

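RNA of fetal sheep septum was labelled with Cy3 and hybridised to 1 Agilent sheep array per fetus. Per the file headers, the authors read each array with Agilent Feature Extraction 10.1.1.1, which subtracts background and gives a processed intensity per spot. The deposited series table holds log2 values, which differed from log2 of those intensities by 1 constant per array and served as an alternative. From the deposited intensities, spots flagged as outliers and control spots were left out, log2 values were taken minus each array's 75th percentile, and spots of a probe were averaged. Probes well above background on at least 6 of 27 arrays (12778 of 15008) entered limma 3.58.1 (R 4.3.3), fitted to all 27 arrays in 4 groups with Benjamini-Hochberg adjustment over all tested probes at 0.05. Of 15008 probes 1684 carried a gene name in the files or through reference identifiers, and a gene was represented by whichever of its tested probes was brightest on average across the 27 arrays. Positions of probes in a genome were not used here. Some genes and probe sequences are not reported here, though counts over lists and over all genes include them. Where a probe was not well above background on any array of a group, the fold is a bound, from the brighter group's mean against the mean of, per array, the higher of the dim probe and the dimmest probe well above background.

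Genes were named by a rule: members of fixed lists past the threshold, the 15 largest rises and 15 largest falls among other called genes, a set of cardiac and endocrine genes whatever their result, and 1 uncalled member of some lists. Genes said to have been picked after their values were seen are exceptions, as are the pairs of shifted probes and the genes singled out for the arm difference. The members and lists were chosen with earlier results of these data known. Replicate numbers did not pair the samples: the correlation of deviations between same-numbered controls of both ages ran from -0.17 to 0.05 over 6 pairs. Scan times coincided with slides. The fit was tested on simulated data for this comparison with 12778 probes, where it recovered 81% of changes of 1 and 98% of changes of 2 on the log2 scale. Lists were described by counts and medians with no test of their own. Alternatives were the control arrays alone, other background correction, scaling, filters and probe summaries, slide and replicate blocks, and leaving out 1 array. Leaving out 3 outlying arrays together was added after the data were seen.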

Additional observations from a re-analysis of the deposited data

Results flagged for a closer look

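In 350 groups of 6 or 8 control arrays, 43 held a sample far from the nearest of the others, of which 41 are given here, and chance gives about 1 in 20. Fetus 2 of the 130-day group lay apart in 10. It was lower than its group in CCNA2 (-5.04, next -1.59), TYMS (-4.61, next -2.21), IGFBP2 (1.59, next 3.46), INHBA (-1.62, next -0.27) and the mean of the cell cycle list (-0.77, next 0.45), and higher in SLC25A33 (-0.93), SLC25A26 (-1.98), PLIN5 (-2.02), PRKAA2 (-2.08) and ROBO4 (-0.42). In every one of these 10 it lay on the side of the 140-day fetuses.

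Fetus 3 of the 130-day group was the highest of its age in 6 immune genes: CD86 (-1.38), CLEC6A (0.31), CTSS (1.62), FCER1G (0.36), MX1 (3.86) and MX2 (2.71).

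Fetus 1 of the 140-day group was the highest of its age in CHCHD3 (6.31), MMP13 (-4.28), PLIN1 (-0.48), PSMA6 (4.99), SLC25A6 (6.11), TNF (-3.80) and UGT1A9 (-1.20) and in the means of the ion channel list (0.58) and the proteasome list (0.26). It was the lowest in CFL1 (-3.65), DNMT1 (1.11), PRKCSH (-4.33), TGFB1 (-4.33) and TRAF3 (-6.03) and in the endothelial list (-0.84).

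Fetus 2 of the 140-day group was low in FGF1 (2.55), LCK (-8.58) and MHCII-DRB1 (-3.62) and high in the mean of the sarcomere and cytoskeleton list (0.79). Single values stood apart in older fetus 5 for ICAM1 (-5.36), in older fetus 3 for the corticosteroid list (1.21), in older fetus 4 for the chaperone list (0.32), in younger fetus 5 for TGFBR2 (-2.44), in younger fetus 6 for the tricarboxylic acid list (-0.18) and in younger fetus 4 for the early-response list (0.95).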

How the results depend on the processing

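Against 2443 probes and 184 named genes past the threshold, normexp background correction gave 536 and 44, and single slides gave 3 and 1, 5 and 2, and 2 and 1 (slides 2, 3 and 4, with 4, 4 and 3 control arrays). Leaving out 1 array gave 1649 (without 130-day fetus 3) to 2823 probes (without 130-day fetus 2) and 130 to 214 genes. The other alternatives gave 1841 (3 arrays left out) to 2842 probes (the authors' deposited table) and 148 to 225 genes. The replicate block gave 2494 probes and 189 genes, with 127 of 144 called named genes still past the threshold, and since the numbers do not pair the samples this says nothing about pairing. Of those 144 genes, 87 passed in all 14 fits without 1 array and 36 of them in all other whole-comparison settings too. Among the genes given here, signs turned with normexp in GAL (0.35), IL1A (0.23), LCK (0.012), TLR10 (0.083) and TRAF3 (0.070). With quantile normalization they turned in RPS2 (-0.0064), RPS27A (-0.0025), TPT1 (-0.13) and UBB (-0.11). Within slide 2 they turned in ATF6 (-0.12), NEB (-0.14), PCNA (0.15) and TLR10 (0.20), within slide 3 in FGF18 (0.023) and NR3C1 (-0.046), and within slide 4 in BMPR1B (-0.049), CPE (0.071), IFITM3 (0.035) and IGF1 (0.25). The single slides hold few arrays, and the cause of the other changes was not tested. Scan date as a block was not run because it coincides with slide. Dim probes limit the falls: IL1A and GAL (at least 1.24-fold lower) were not well above background on any 140-day array.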

Other observations

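Several called genes lay outside the groups described above. APOA1, the main protein of high-density lipoprotein, fell by 1.01 (SE 0.25, adjusted p = 0.00663 in limma). ALDH1A1, which makes retinoic acid, rose by 1.53 (SE 0.37), from levels of 0.81, 1.78 and 2.95 (lowest, median and highest) at 130 days to 2.90, 3.17 and 3.79 at 140 days. GSTM3, a glutathione transferase, rose by 1.30 (SE 0.39, adjusted p = 0.021), with the call lost without 130-day fetus 1 (1.18, adjusted p = 0.0572) or 3 (1.08, adjusted p = 0.0681), without the 3 outlying arrays (1.09, adjusted p = 0.0836), with slide as a fixed block (1.26, adjusted p = 0.0552) and with normexp correction (1.16, adjusted p = 0.0581). FGF1, an acidic fibroblast growth factor, rose by 0.55 (SE 0.16), lost without 130-day fetus 1 (0.47, adjusted p = 0.0574) or 3 (0.48, adjusted p = 0.0568), while FGF18 fell by 0.77 (SE 0.22, adjusted p = 0.0164), a call lost with normexp correction (-0.56, adjusted p = 0.0905). CD40, a receptor that activates B cells and macrophages, fell by 1.05 (SE 0.27; -0.57 with an adjusted p of 0.286 under normexp correction), and SLPI, a protease inhibitor of secretions, by 1.21 (SE 0.35) with no overlap, the latter lost without 130-day fetus 1 (-1.09, adjusted p = 0.0502) or the 3 outlying arrays (-1.05, adjusted p = 0.0527) and at -0.04 with normexp correction. MLN, the gut hormone motilin, rose by 1.14 (SE 0.24, adjusted p = 0.00238) in controls and changed by -0.30 under cortisol, a difference between the arms that did not pass (adjusted p = 0.237 for the interaction in limma). Its call was lost with normexp correction (0.84, adjusted p = 0.148), and a second MLN probe of nearly the same brightness changed by 0.34 (adjusted p = 0.271).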
